A study of Mus musculus with 6 samples.

Results

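Transcripts of 36 mouse genes of the hypoxia-inducible factor (HIF) pathway and of glycolysis were followed in embryonic eye ectoderm with and without the coactivators CBP and p300. The genes were taken by symbol from a given list: 5 regulators of HIF, 14 other HIF targets, and 17 genes of glycolytic enzymes with lactate dehydrogenase and the regulator Pfkfb3. That list was chosen with earlier results of these data known. Of the 36 genes, 33 had a named probe on the array (67 of 45281 probes), and 27 had a probe that entered the test, of 10123 genes with such a probe. Hk2, Gpi1 and Eno1 had no named probe. Epas1, Adm, Bnip3, Bhlhe40, Pfkfb3 and Ldhb had only probes too dim for the test, which required a detection p-value under 0.05 on at least 3 arrays.

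RNA came from laser-microdissected tissue of E10.5 embryos, on a mixed FVB and 129 background, and was measured on 6 Illumina bead arrays. All embryos carried floxed alleles of both CBP and p300 (CBP/p300 fl/fl). Double conditional knockout embryos (DCKO, 3 arrays) also carried the Pax6-Cre transgene, and embryos without it served as wild type (WT, 3 arrays). The tissue is labelled lens placode in WT and surface ectoderm in DCKO. Pax6-Cre is driven by Pax6 regulatory sequence active in the ectoderm that forms the lens, so the model holds only for cells in which that driver was active by this age. The sample records describe pooled RNA while the article counts 3 biological replicates per genotype, so the p-values below measure the spread between these samples, which may be partly technical.

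HIF is a transcription factor made of an oxygen-sensitive alpha subunit (HIF1A or EPAS1) and the stable partner ARNT. In well-oxygenated cells the EGLN prolyl hydroxylases mark the alpha subunit, which VHL then directs to degradation. When oxygen is low the dimer binds hypoxia response elements and recruits CBP and p300 through the transactivation domain of its alpha subunit. Its known targets include most glycolytic enzymes, glucose transporters, angiogenic factors, pH regulators and the hydroxylases EGLN1 and EGLN3 themselves. Because HIF uses the deleted coactivators, the comparison of the genotypes asks how the RNA of its targets stood in their absence.

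Of 19552 tested probes, 346 rose in DCKO (1.77%) and 549 fell (2.81%), and of the 48 tested probes of the member genes 8 rose and 0 fell. Between 18081 and 19769 probes were detected per array, and arrays correlated at 0.930 to 0.934 within WT, at 0.878 to 0.883 within DCKO and at 0.837 to 0.857 between genotypes. Of the deleted genes, Ep300 fell on 1 of its 4 tested probes (at least 2.87-fold lower, adjusted p = 0.0159 from limma). That probe was detected on all WT arrays and on no DCKO array, so it entered the test only through WT. The other Ep300 probes, at log2 fold changes of -0.03 on the brightest, -0.19 and -1.31, did not pass. Neither did those of Crebbp, which were detected on every array. These probes are thus only a weak check of the labels. The summed linear level of 9 lens markers lay between 18256 and 20285 in WT and between 3445 and 4130 in DCKO, with Cryaa, Crybb3 and Foxe3 undetected on every DCKO array. Undetected genes still add a background value to such a sum, so the low sums below hold much background. Of 7 surface ectoderm markers, Krt8 and Trp63 rose, and 6 had a log2 fold change above 0 (median 0.92). At an unadjusted p under 0.05 (limma) 5 were higher in DCKO, Krt18, Epcam and Krt14 among them. Trp63 and Krt14 were detected on 1 WT array and all DCKO arrays, so they entered the test only through DCKO. The sum of the 7 markers lay between 7644 and 8791 in WT and between 7272 and 8439 in DCKO. Cdh1 (log2 fold change -0.82, not passing) gave the main part of it. Unlike the Trp63 rise here, the article reports by in situ hybridization that p63 was lost in the mutant presumptive lens ectoderm. Its controls were double heterozygous embryos, in which p63 was kept in surface ectoderm but silenced in the invaginated lens cells. The arrays instead set WT tissue labelled lens placode against DCKO tissue labelled surface ectoderm. The reason for the difference between the Trp63 rise and the reported p63 loss was not tested. Macrophage markers summed to 1846 to 2530 in WT and 191 to 281 in DCKO, with 3 of 4 tested markers lower, and the brightest probes of Aif1, Mpeg1 and Ptprc were undetected on every DCKO array (a dimmer Aif1 probe was detected on 2 arrays of each genotype, and Fcer1g was undetected in both). The erythroid sum went from 4149 to 5172 in WT to 2621 to 3041 in DCKO. Of its 4 tested markers only Hba-a1 passed and fell, while Hbb-y, the brightest, overlapped between genotypes (log2 fold change -0.52). Mesenchyme markers did not move together. Pdgfra fell, and it made up most of their sum in WT but not in DCKO (4347 to 4770 in WT, 612 to 1081 in DCKO). Prrx1 rose on its brightest probe (adjusted p = 0.0465, limma), which entered the test only through its detection in DCKO. Foxc1 had a log2 fold change of 1.47 without passing, and the untested Twist1 was detected on 2 DCKO arrays and no WT array. No endothelial marker passed, with Tek at -2.29, Kdr at 0.00069 and Emcn at 0.20 on the log2 scale, and their sum lay between 234 and 486 in WT and between 183 and 211 in DCKO. These cell type differences accompany every result below, and their part in the HIF and glycolysis values was not tested. In such bulk tissue, fewer cells of a type and less RNA per cell cannot be told apart.

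The promoters are shown first, since HIF acts through a short core sequence. The core was searched in its 2 forms, ACGTG and GCGTG, on both strands of the 250 bases before each start listed in RefSeq (assembly GRCm38.p6). A palindrome CACGTG counts as a match on each strand. Of the 32 genes with a listed promoter, 19 held ACGTG (59.4%), 22 held GCGTG (68.8%) and 30 held either (93.8%). Among 8233 genes with a tested probe and a listed promoter, the shares were 25.3%, 50.3% and 61.8%. Counted by window, since some genes have several starts, either form stood in 39 of 48 member windows (81.2%), in 55.8% of the windows of genes with a tested probe and in 38.6% of all 32851 windows. Both forms hold a CpG, so their frequency moves with the CpG content of a promoter, which was not matched here. A match is a description of the letters and not a site bound by HIF. The stretches below, printed 5′ to 3′ on the gene's strand with the cores in capitals, belong to the members whose probes passed the test in DCKO and to Ldha, the classic glycolytic HIF target. Members that did not rise hold cores too. All 11 HIF targets with a listed promoter held either form, Higd1a and P4ha1 with their lower DCKO levels among them. The Egln1 stretch lies at chr8:124949306-124949392 (minus strand), Egln3 at chr12:54204087-54204115 (minus), Ankrd37 at chr8:45999851-46000100 (minus), Ddit4 at chr10:59951869-59951969 (minus), Car9 at chr4:43506996-43507024 (plus), Pgk1 at chrX:106186938-106186985 (plus) and Ldha at chr7:46845647-46845786 (plus).
Egln1: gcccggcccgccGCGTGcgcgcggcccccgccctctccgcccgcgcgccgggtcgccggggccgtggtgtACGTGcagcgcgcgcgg
Egln3: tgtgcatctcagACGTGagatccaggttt
Ankrd37: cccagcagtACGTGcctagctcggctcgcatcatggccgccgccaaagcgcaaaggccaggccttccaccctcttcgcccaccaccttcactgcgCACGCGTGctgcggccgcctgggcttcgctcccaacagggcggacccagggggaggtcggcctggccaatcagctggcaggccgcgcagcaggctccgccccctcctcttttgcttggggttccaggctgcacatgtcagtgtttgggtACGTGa
Ddit4: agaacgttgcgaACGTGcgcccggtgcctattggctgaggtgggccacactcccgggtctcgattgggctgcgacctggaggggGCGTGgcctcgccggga
Car9: ctatttccgatgCACGTacagcccgtcca
Pgk1: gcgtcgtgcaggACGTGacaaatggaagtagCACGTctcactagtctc
Ldha: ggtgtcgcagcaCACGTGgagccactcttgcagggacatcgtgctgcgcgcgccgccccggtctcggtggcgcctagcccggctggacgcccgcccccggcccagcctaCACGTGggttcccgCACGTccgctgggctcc
Capitals that read CACGT or CACGC are the core on the opposite strand, and CACGTG is the palindrome, present at 2 places before Ldha. In Ankrd37 the run CACGCGTG holds GCGTG on each strand.

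**Figure D1:**
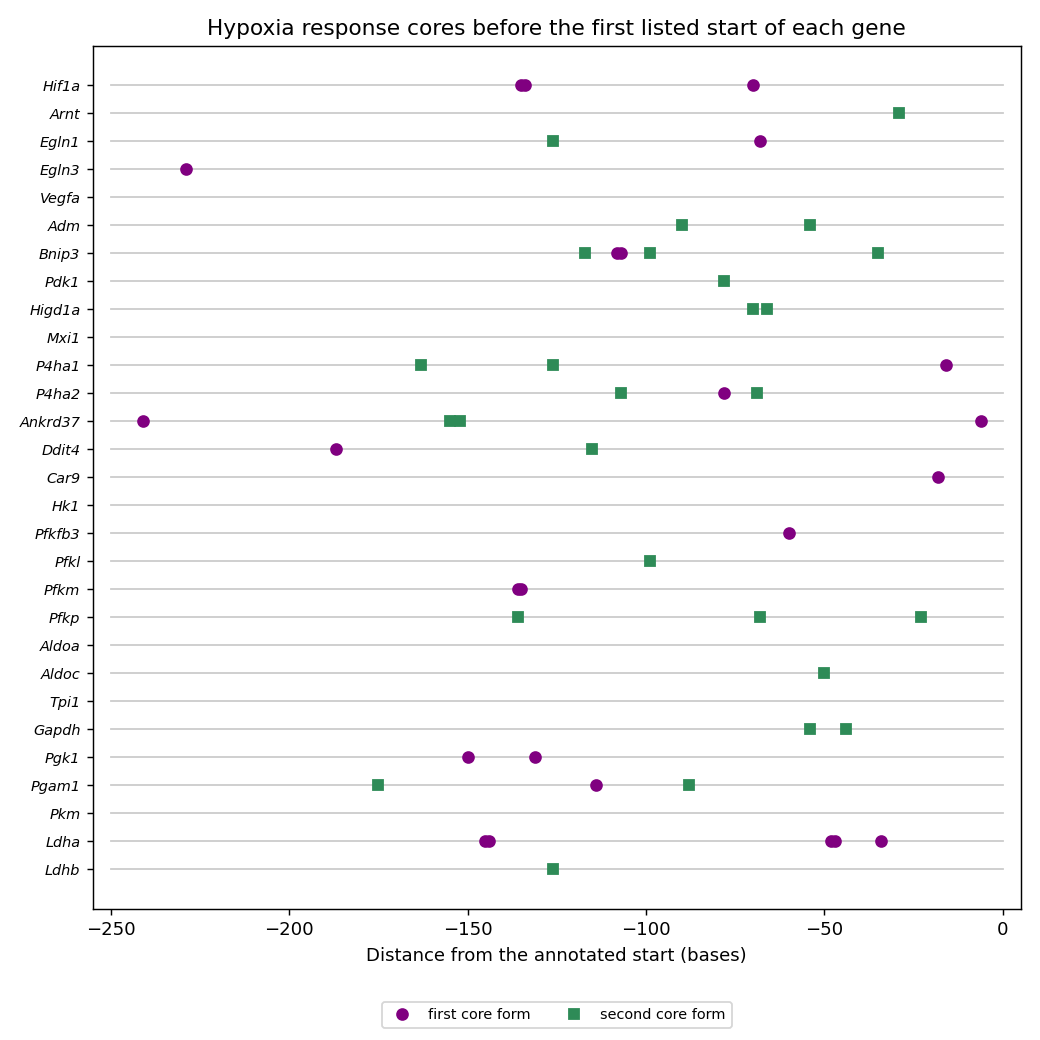
Positions of hypoxia response cores in the 250 bases before the first listed start of each member gene that also had a probe, with distance from the start in bases on the horizontal axis. Purple circles mark ACGTG and green squares mark GCGTG, on either strand, and lines without a symbol are genes with neither form in this window, such as Vegfa and Pkm.

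Among the regulators of HIF, 0 of the 4 genes with a tested probe passed on its brightest probe (limma), where 2.10% of all 10123 genes rose. At an unadjusted p under 0.05, 2 of the 4 were higher in DCKO, as were 10.6% of all genes. The prolyl hydroxylase genes Egln1 and Egln3 both rose on other probes, and 2 of 4 regulators thus rose on at least 1 tested probe, where 2.83% of all genes did so. That share depends on the number of tested probes per gene, which was not matched, and counting any probe was chosen after seeing the data. The levels of 3 of the 4, Hif1a, Egln1 and Egln3, did not overlap between genotypes and were higher in DCKO, an arrangement found in 14.4% of all genes.

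Hif1a, which encodes the oxygen-labile subunit, read 8.27, 8.41 and 8.65 on the WT arrays and 8.85, 8.93 and 9.09 on the DCKO arrays (normalized log2 intensity). The DCKO values lay above every WT value by a small margin. The log2 fold change of 0.51 (95% interval -0.02 to 1.05) did not pass (adjusted p = 0.256, limma), and neither did the second probe at 0.45, where the genotypes overlapped. The brightest probe of Arnt, the constitutive partner, read 10.16, 10.40 and 10.35 in WT and 9.68, 10.22 and 9.92 in DCKO, a log2 fold change of -0.37 (adjusted p = 0.450). Its 3 other tested probes pointed the other way, at 1.29, 0.28 and 0.59, and none passed, so these data give no direction for Arnt. Epas1, the alpha subunit best known from endothelium, read 6.19, 5.07 and 5.39 in WT and 9.24, 4.91 and 5.22 in DCKO. Only replicate 1 of each genotype was detected, and DCKO replicate 1 stood far above the other 5 arrays.

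Egln1 encodes the main oxygen sensor that hydroxylates HIF alpha subunits. Its brightest probe read 6.65, 7.58 and 7.38 in WT and 8.35, 8.72 and 9.23 in DCKO, a log2 fold change of 1.56 ± 0.36 (SE, n = 3 per genotype) with an adjusted p of 0.0620 from limma. Every DCKO array exceeded every WT array. The other tested probes pointed the same way. One read 6.47, 7.25 and 7.56 in WT and 8.59, 8.68 and 9.13 in DCKO and rose 3.26-fold (adjusted p = 0.0463 from limma). The last read 6.69, 7.25 and 7.34 in WT and 8.25, 8.51 and 8.95 in DCKO and rose 2.78-fold (adjusted p = 0.0465 from limma). The call thus differed between probes while the fold stayed between 2.78 and 3.26.

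Egln3 encodes a prolyl hydroxylase that is itself strongly hypoxia-inducible. Its brightest probe read 8.27, 6.92 and 8.42 in WT and 8.87, 8.72 and 9.99 in DCKO, a log2 fold change of 1.32 that did not pass (adjusted p = 0.220, limma). A dimmer probe read 6.06, 5.99 and 6.18 in WT and 7.41, 7.12 and 7.40 in DCKO and rose 2.35-fold (adjusted p = 0.0324 from limma). The WT arrays spread over much of the difference on the first probe and lay close together on the dimmer one. Its last probe read 6.82, 4.61 and 4.78 in WT and 5.53, 8.01 and 8.59 in DCKO and overlapped (adjusted p = 0.300, limma).

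Of the 11 HIF target genes with a tested probe outside glycolysis, 3 rose in DCKO, none fell and 8 did not pass, where 2.10% of all genes rose and 2.78% fell. Ankrd37, Ddit4 and Car9 were the 3 that rose. At an unadjusted p under 0.05 (limma), 4 of the 11 were higher in DCKO and 2 were lower, against 1076 and 1066 of all 10123 genes. The median log2 fold change of the 11 was 0.32, with a range from -0.77 to 2.55, against a median of 0.01 over all genes. The groups did not overlap in 4 genes with DCKO above WT (14.4% of all genes) and in 2 with DCKO below (14.6%). The 14 targets together had a summed linear level between 6643 and 7142 in WT and between 13597 and 14944 in DCKO. Ddit4 was the largest single part of this sum in WT and its main part in DCKO, so the difference in the sum was mostly that of Ddit4.

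Ddit4 (chr10:59949675-59951770, minus strand) encodes REDD1, a stress-induced inhibitor of mTORC1 signalling. It read 11.20, 11.18 and 11.00 in WT and 13.10, 13.03 and 13.04 in DCKO. The arrays of each genotype lay close together and far from the other genotype. It rose 3.81-fold (log2 fold change 1.93 ± 0.20 SE, 95% interval 1.44 to 2.42, adjusted p = 0.00613 from limma). The call held whichever array was left out, with adjusted p between 0.0207 and 0.0416 (limma), and it was the only member with that property.

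Ankrd37 (chr8:45996908-46000414, minus strand) encodes a small ankyrin repeat protein whose gene is a direct HIF target in human cells. It read 7.94, 7.00 and 8.30 in WT and 10.62, 9.98 and 10.31 in DCKO, with no overlap. It rose 5.88-fold, the largest rise among the members (log2 fold change 2.55 ± 0.39 SE, 95% interval 1.62 to 3.49, adjusted p = 0.0207 from limma). The call was lost without WT replicate 1 (adjusted p = 0.0726, limma), DCKO replicate 1 (0.0594) or DCKO replicate 3 (0.0576).

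Car9 (chr4:43507026-43513729, plus strand) encodes carbonic anhydrase IX, a cell surface enzyme that handles acid and is widely used as a marker of hypoxic tissue. It read 7.00, 6.52 and 6.55 in WT and 8.42, 7.83 and 7.90 in DCKO. All DCKO arrays were higher. It rose 2.57-fold (log2 fold change 1.36 ± 0.27 SE, adjusted p = 0.0456 from limma). This call was lost when any 1 of the 6 arrays was left out (adjusted p 0.0751 to 0.158, limma) and with the authors' processed values (0.0536).

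Ndrg1, a gene induced by hypoxia and by differentiation, read 5.21, 4.99 and 5.16 in WT, where no array detected it, and 6.25, 6.97 and 6.19 in DCKO. It was at least 2.04-fold higher in DCKO but did not pass (adjusted p = 0.0505, limma), and it entered the test only through its detection in DCKO. The targets with lower DCKO levels also missed the threshold. Higd1a, a mitochondrial protein gene, read 9.71, 10.05 and 10.03 in WT and 9.21, 9.16 and 9.10 in DCKO (log2 fold change -0.77, adjusted p = 0.106, limma). P4ha1, a subunit of the collagen prolyl hydroxylase, read 7.82, 8.56 and 8.50 in WT and 7.47, 7.55 and 7.63 in DCKO (adjusted p = 0.189, limma). Its dimmer probe read 7.99, 7.17 and 8.60 in WT and 6.39, 5.05 and 5.40 in DCKO (log2 fold change -2.31, adjusted p = 0.0529, limma). Both probes thus had every DCKO array below every WT array.

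Vegfa, the angiogenic factor most often used as a readout of HIF, read 9.59, 8.55 and 9.24 in WT and 9.18, 9.12 and 8.47 in DCKO. The genotypes overlapped, and the log2 fold change of -0.21 had a 95% interval from -1.06 to 0.64 (adjusted p = 0.799, limma), which holds both a fall and a rise. The remaining tested targets also overlapped between genotypes: the mitophagy receptor gene Bnip3l (log2 fold change 0.14), the pyruvate dehydrogenase kinase gene Pdk1 (0.32), the collagen hydroxylase gene P4ha2 (0.67) and the Myc antagonist gene Mxi1 (-0.26). Of the untested targets, Adm, which encodes the vasoactive peptide adrenomedullin, was detected on no array. Bnip3, a mitophagy gene related to Bnip3l, was detected on 2 DCKO arrays and no WT array, and Bhlhe40, a transcriptional repressor gene, on 2 WT arrays and no DCKO array.

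**Figure D2:**
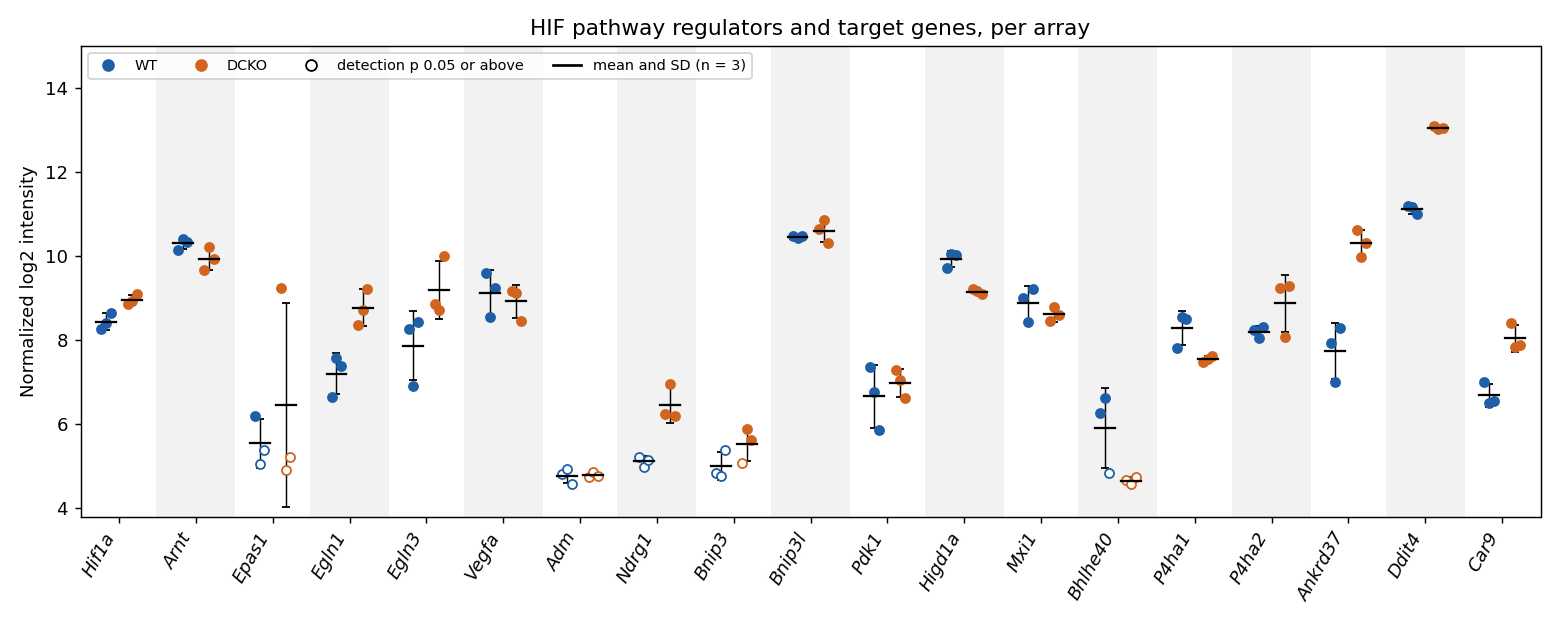
Normalized log2 intensity of each array (vertical axis) for the HIF regulators and target genes by their brightest probe, with open circles for arrays whose detection p was 0.05 or above and bars for the mean and SD of 3 arrays. The DCKO points of Ddit4, Ankrd37 and Car9 all lie above the WT points, those of Vegfa overlap, and Epas1 has a single high array at 9.24.

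Of the 12 glycolytic genes with a tested probe, Pgk1 alone passed and rose in DCKO, 11 did not pass and none fell, where 2.10% of all genes rose. The log2 fold change was above 0 in 11 of the 12, where 50.9% of all genes were, and its median was 0.61 (range -0.05 to 1.38) against 0.01 over all genes. In 8 of the 12 every DCKO array exceeded every WT array on the brightest probe, an arrangement found in 14.4% of all genes, and in none was the reverse seen. An unadjusted p under 0.05 with higher DCKO was reached by 7 of the 12 and by 10.6% of all genes, and none of the 12 reached it with lower DCKO. Summed on the linear scale, the glycolytic genes reached 20802 to 22596 on WT arrays against 33522 to 35651 on DCKO arrays. Enzymes of one pathway on the same 6 arrays share their samples, so these counts do not stand for independent observations. The shares over all genes were not matched for intensity, although many of the 12 had bright probes with little spread within a genotype. The members were also chosen with earlier results of these data known, so the shares are given as description only.

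Along the pathway, the entry step gave little. Hk1, the member hexokinase with a probe here, had a log2 fold change of 0.13 (adjusted p = 0.918, limma) at a level near the detection limit. The phosphofructokinase genes, which encode the committed step, all had positive values on their brightest probes. Pfkl, the liver-type subunit, read 10.21, 9.85 and 10.22 in WT and 10.96, 11.38 and 10.94 in DCKO (log2 fold change 1.00, 95% interval 0.41 to 1.59, adjusted p = 0.0779, limma). Pfkm, the muscle-type subunit, had a log2 fold change of 0.81 on its brightest probe, but its other tested probes gave 0.48 and -0.29. Pfkp, the platelet-type subunit, had 1.38 on its brightest probe with overlapping genotypes. Its other tested probe had 1.58, with every DCKO array above every WT array (adjusted p = 0.117, limma), but it was detected on 1 WT array and entered the test only through DCKO. Neither gene passed on any probe (adjusted p = 0.241 and 0.187 on the brightest, limma). Pfkfb3, whose product makes the activator of phosphofructokinase, was detected on 1 DCKO array only.

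In the middle of the pathway, Aldoa, the main aldolase gene outside liver and brain, read 11.28, 11.21 and 11.27 in WT and 11.72, 12.06 and 12.02 in DCKO (log2 fold change 0.68, adjusted p = 0.139, limma), and its paralog Aldoc had 0.47. Tpi1, the triosephosphate isomerase gene, had a log2 fold change of 0.54 without overlap on its brightest probe and 0.03 on the other. Neither aldolase nor isomerase passed. Gapdh, the next enzyme and a common reference gene, overlapped between genotypes, at 10.20, 10.30 and 10.15 in WT and 9.94, 10.23 and 10.31 in DCKO. Its log2 fold change was -0.05, with a 95% interval from -0.58 to 0.47, and 0.15 without between-array normalization, where the median of all genes was 0.14.

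Pgk1 (chrX:106187100-106203699, plus strand) encodes phosphoglycerate kinase, which makes the first ATP of the pathway. It read 11.25, 11.17 and 11.25 in WT and 12.45, 12.33 and 12.35 in DCKO. The spread within a genotype was small beside the gap between them. It rose 2.22-fold (log2 fold change 1.15 ± 0.20 SE, 95% interval 0.67 to 1.63, adjusted p = 0.0318 from limma). A dimmer probe read 8.14, 7.93 and 8.15 in WT and 9.25, 8.94 and 9.18 in DCKO and rose 2.08-fold (adjusted p = 0.0489 from limma). The fold was thus similar on both probes, though the call on the brightest was lost when any 1 of the 6 arrays was left out (adjusted p 0.0653 to 0.120, limma).

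At the lower end of the pathway, Ldha, the lactate dehydrogenase subunit gene induced by HIF, read 11.66, 11.36 and 11.50 in WT and 12.44, 12.45 and 12.48 in DCKO. The DCKO arrays were nearly equal and all above WT. The difference of 1.93-fold (95% interval 0.45 to 1.45 on the log2 scale) did not pass (adjusted p = 0.0575, limma). Ldhb, the gene of the other common subunit, was detected on no array. Pgam1, the phosphoglycerate mutase gene, and Pkm, the pyruvate kinase gene, had log2 fold changes of 0.47 and 0.37, both without overlap and neither passing (adjusted p = 0.273 and 0.378, limma). Their other tested probes gave 0.85 and 0.19, and there the genotypes overlapped. When the variance was moderated along intensity with robust settings, 6 of the 12 glycolytic genes rose, where 3.28% of all genes did. These were Pfkl, Aldoa, Tpi1, Pgk1, Pgam1 and Ldha, with adjusted p from 5.00e-04 for Pgk1 to 0.0445 for Pgam1 (limma).

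**Figure D3:**
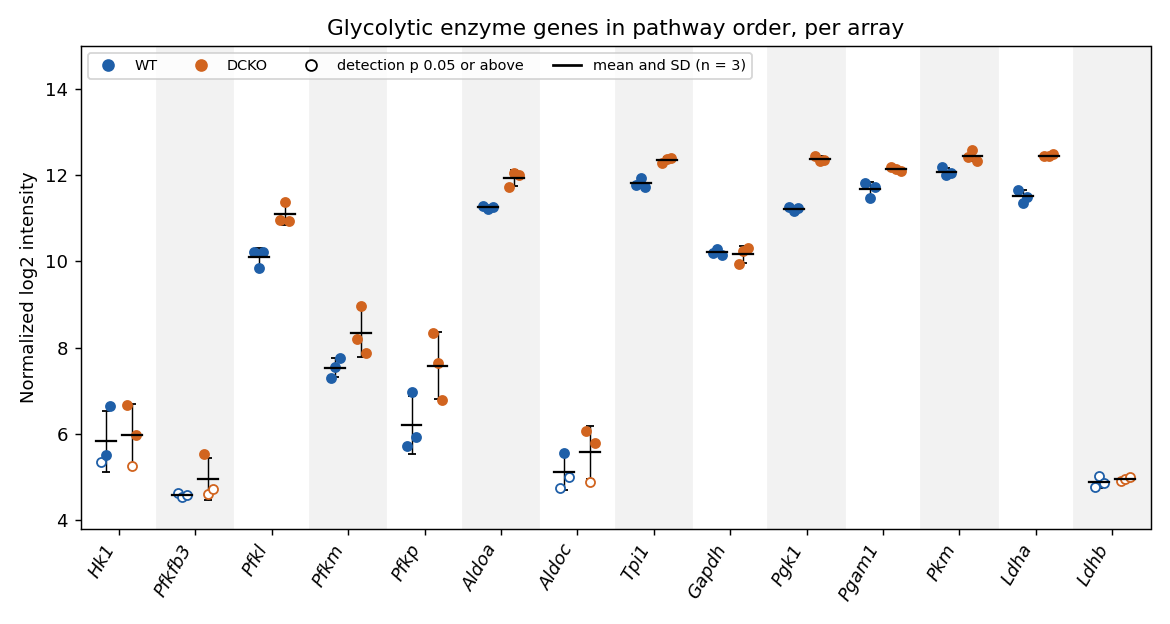
Normalized log2 intensity of each array (vertical axis) for the glycolytic enzyme genes in pathway order, by their brightest probe, with open circles for arrays whose detection p was 0.05 or above and bars for the mean and SD of 3 arrays. DCKO points lie above all WT points for Pfkl, Pfkm, Aldoa, Tpi1, Pgk1, Pgam1, Pkm and Ldha, and overlap them for Gapdh.

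**Figure D4:**
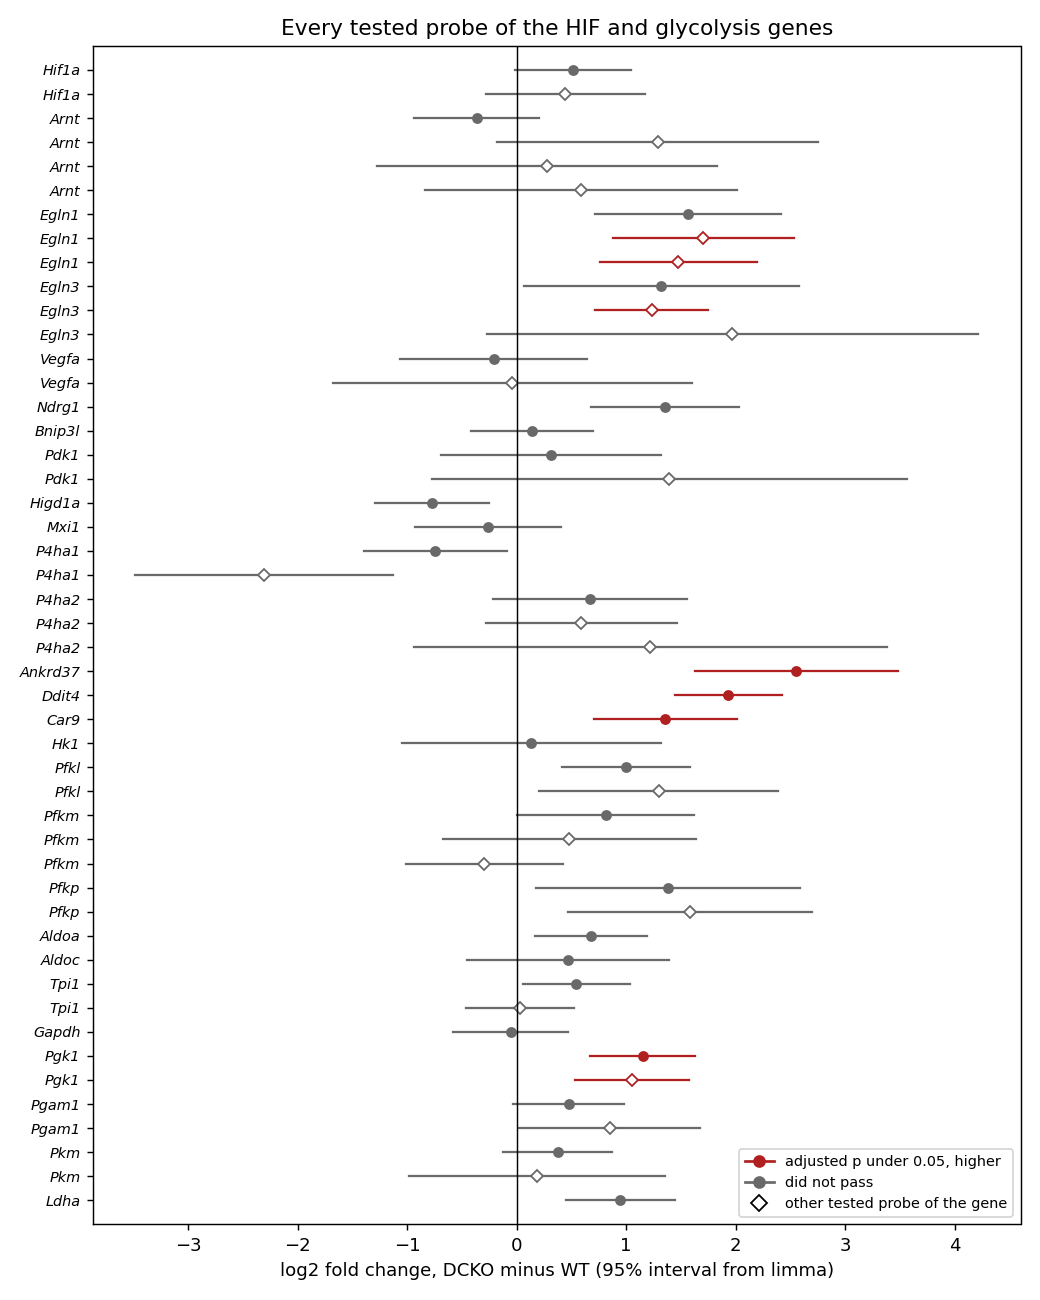
Log2 fold change, DCKO minus WT (horizontal axis), with its 95% interval from limma for each of the 48 tested probes of the 27 genes. Filled circles are the brightest probe of a gene and open diamonds its other tested probes, red marks an adjusted p under 0.05, and probes of Arnt, Pfkm and Tpi1 differ visibly among themselves.

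Other genes of the HIF pathway were read from a list of 35, of which 31 had a tested probe. Of these, 2 rose (Stc2 and S100a10), none fell and 29 did not pass, where 2.10% of all genes rose. The log2 fold change was above 0 in 21 of 31, with a median of 0.27, against 50.9% and 0.01 for all genes. At an unadjusted p under 0.05 (limma) 8 were higher and 1 was lower, against 1076 and 1066 of all 10123 genes. Stc2, which encodes the secreted glycoprotein stanniocalcin 2, read 7.56, 7.52 and 7.19 in WT and 9.17, 10.20 and 9.54 in DCKO and rose 4.64-fold (adjusted p = 0.0174 from limma). S100a10, which encodes the partner of annexin A2, read 6.52, 6.23 and 6.00 in WT and 9.55, 8.55 and 8.79 in DCKO and rose 6.57-fold (adjusted p = 0.00945 from limma). Both are also induced by signals other than hypoxia. The call of Stc2 was lost without WT replicate 1, 2 or 3 (adjusted p 0.0690 to 0.0821, limma) and that of S100a10 without WT replicate 3 (0.0548). Kdm3a, a histone demethylase gene and a well-known HIF target, had a log2 fold change of 1.24 and did not pass (adjusted p = 0.0614, limma).

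Of 36 other genes of glucose uptake and pyruvate use, 19 had a tested probe, 3 of these rose (Slc2a3, Eno2 and Pgam2), 1 fell (Pfkfb2) and 15 did not pass, where 2.10% of all genes rose and 2.78% fell. Slc2a3, which encodes the high-affinity glucose transporter GLUT3, read 7.95, 7.43 and 7.77 in WT and 10.49, 10.03 and 10.45 in DCKO and rose 6.10-fold (adjusted p = 0.00511 from limma), a call that held whichever array was left out. Slc2a1, which encodes the widespread transporter GLUT1 and is a classic HIF target, read 12.75, 12.81 and 12.75 in WT and 12.68, 12.68 and 12.78 in DCKO (log2 fold change -0.05). The transporter genes therefore stood differently: the DCKO arrays of Slc2a3 were all higher and those of Slc2a1 overlapped WT, although the difference between the genes was not tested.

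Minor isoforms of glycolytic enzymes and a regulator gave the other calls. Eno2, the enolase gene typical of neurons, read 5.56, 4.92 and 5.34 in WT and 7.46, 7.70 and 7.14 in DCKO and rose 4.47-fold (adjusted p = 0.0115 from limma). It was detected on 1 WT array, so it could enter the test only with its detection in DCKO. The call was lost without WT replicate 3 (adjusted p = 0.0595, limma). Summed levels of 4 neuron markers were between 210 and 299 in WT and between 333 and 437 in DCKO, and their part in the Eno2 value was not tested. Of these markers Isl1 rose, while Elavl3 had a log2 fold change of -0.63. Isl1 was detected on 1 WT array and all DCKO arrays, so it too entered the test only through DCKO. Pgam2, the muscle-type mutase gene, was undetected on all WT arrays and at least 1.96-fold higher in DCKO (adjusted p = 0.0284 from limma). It entered the test only through its detection in DCKO. Pfkfb2, a regulator of phosphofructokinase best known from heart, read 8.61, 8.41 and 8.98 in WT and 7.05, 7.53 and 7.08 in DCKO and was 2.72-fold lower (adjusted p = 0.0377 from limma), while its other tested probe gave a log2 fold change of -0.03. The calls of Pgam2 and Pfkfb2 were lost when any 1 array was left out (adjusted p 0.0552 to 0.112 and 0.0515 to 0.132, limma). The monocarboxylate transporter gene Slc16a3, whose product exports lactate, had a log2 fold change of 1.20 and did not pass (adjusted p = 0.0596, limma).

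**Figure D5:**
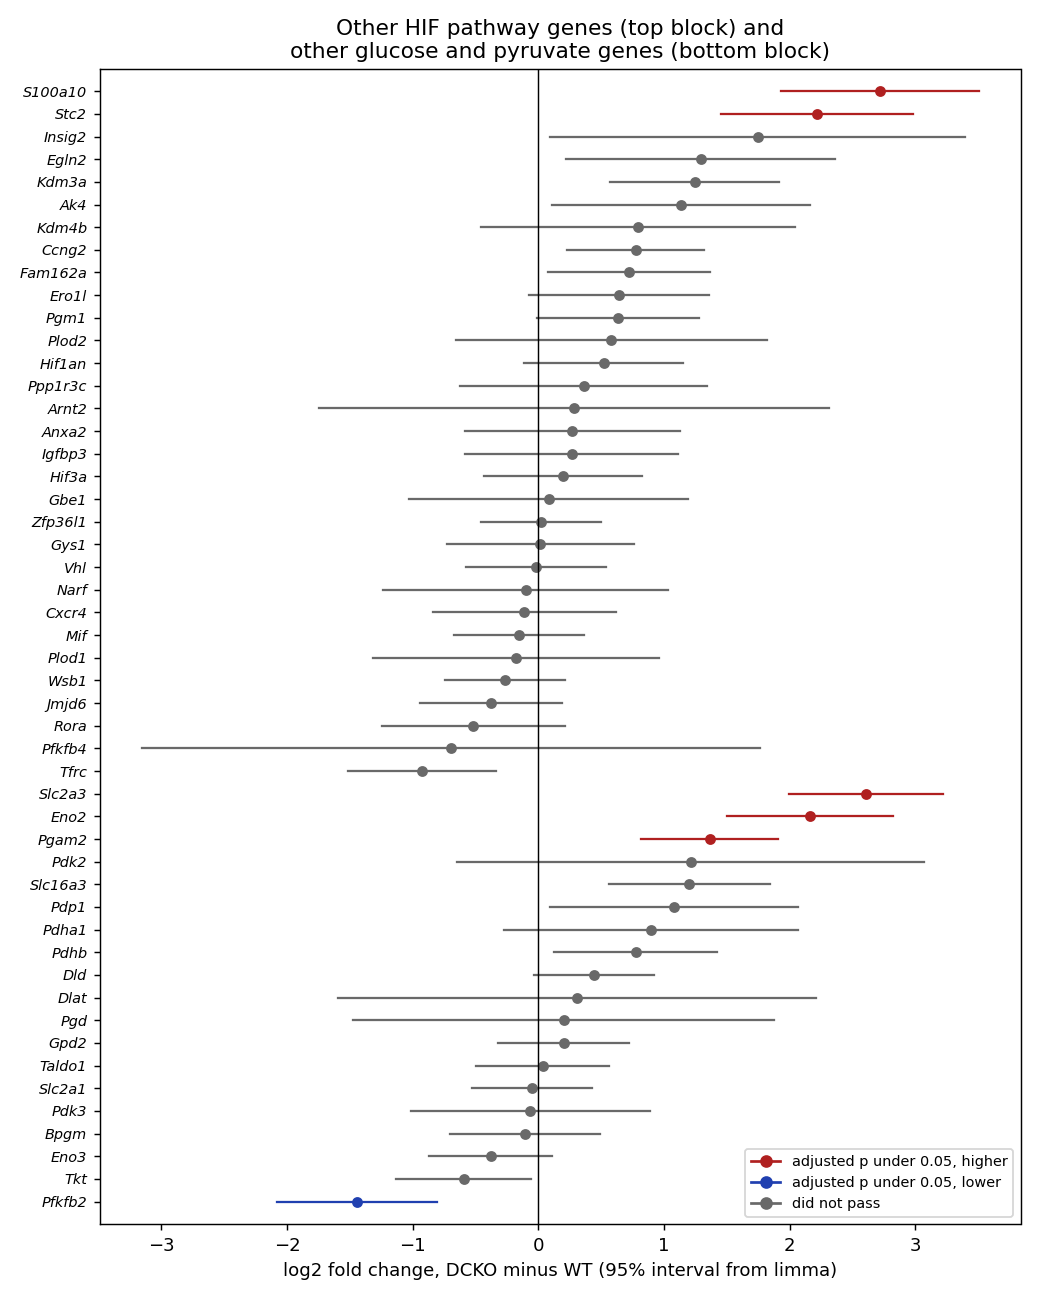
Log2 fold change, DCKO minus WT (horizontal axis), with its 95% interval from limma for the other HIF pathway genes (top block, 31 genes) and the other genes of glucose and pyruvate use (bottom block, 19 genes), each by its brightest tested probe. Red marks genes that rose and blue a gene that fell at an adjusted p under 0.05; Slc2a3 lies at 2.61 and Slc2a1 at -0.05.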

How the data were processed

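Per the authors' deposited tables, each probe has a mean bead intensity without normalization and a detection p-value that compares it with negative controls, both from GenomeStudio, and a processed intensity from a separate table. The article names cubic spline normalization for its processed values, which served here as an alternative. The raw intensities were brought to the log2 scale by limma 3.58.1 (R 4.3.3), using neqc with normexp background estimation, an offset of 16 and quantile normalization. Of 45281 probes, 34885 carried 1 gene symbol in the platform annotation, 18 several and 10378 none here. Probes entered the test if at least 3 arrays had a detection p below 0.05, which left 19552. These were fitted by lmFit and moderated by eBayes with genotype as the only term, and the Benjamini-Hochberg adjustment ran over all of them, with an adjusted p below 0.05 counted as a rise or fall. All adjusted p-values are from this limma fit unless an alternative is named.

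A gene is given by its tested probe with the highest mean over the 6 arrays, and other probes where they differ. Every member is named. Values on each array are given for members that passed, for those without overlap and with an absolute log2 fold change of at least 1, for the HIF subunits and for members whose probes differ in their call. Values on each array of Ldha, Pfkl, Aldoa, Gapdh, Vegfa, Higd1a, P4ha1 and Slc2a1 were added after their values were seen. The members and lists were chosen with earlier results of these data known. For a bound ("at least"), each array of the undetected genotype took its lowest detected value or the probe's own value, whichever was higher, before the means were compared. Linear sums add the normalized values of the brightest probe of each gene. The fit was tested on simulated data. Columns of bead numbers and bead errors (12) were not used. Positions and promoters are from RefSeq, assembly GRCm38.p6, matched by the gene identifier found for each symbol (32 of 36 members had a promoter). The 50 bases after the start were left out of the search. The number of arrays limits the precision. Alternatives are given with their effects in the closing section.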

Additional observations from a re-analysis of the deposited data

How the results depend on the processing

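Log2 fold changes kept their direction in most alternatives, while counts of members that passed moved with the settings, since many adjusted p-values lay near 0.05. With an offset of 50 in normexp, 1 regulator and 3 glycolytic genes rose. Without background correction 1 regulator, 4 glycolytic genes and 4 other HIF pathway genes rose, and 1 target and 1 other HIF pathway gene fell. Without between-array normalization, which moved the median of all genes from 0.01 to 0.14 and that of the glycolytic genes from 0.61 to 0.72, 1 regulator rose and 0 other glucose genes fell. Without the filter on dim probes, and with a detection p under 0.01, 2 glycolytic genes rose. With trend and robust moderation 1 regulator and 6 glycolytic genes rose and 1 other HIF pathway gene fell. The mean of a gene's probes gave 1 regulator and 3 glycolytic genes that rose, 1 target that fell and 0 other glucose genes that fell. Any tested probe of a gene, an alternative chosen after seeing the data, gave 2 regulators. At an adjusted p under 0.01, 54 probes rose and 165 fell, with 1 target, 0 glycolytic genes, 1 other HIF pathway gene and 1 other glucose gene that rose and 0 other glucose genes that fell. At an adjusted p under 0.10, 736 probes rose and 1024 fell, with 1 regulator and 3 glycolytic genes that rose and 1 other HIF pathway gene that fell. The target Ndrg1, the other HIF pathway gene Kdm3a and the other glucose gene Slc16a3 also rose at that threshold.

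Samples with the same replicate number hardly deviated together from their genotype means (correlations of 0.03, 0.03 and 0.01), so the numbers were not taken to pair the arrays. Small as they were, the deviations of each WT array correlated best with those of the DCKO array of its own number. With the replicate number as a block, 49 probes rose and 156 fell, with 0 targets, 0 glycolytic genes, 1 other HIF pathway gene and 1 other glucose gene that rose and 0 other glucose genes that fell. Leaving out each array in turn, 59 to 222 probes rose and 170 to 398 fell, with 1 to 2 targets, 0 glycolytic genes, 0 to 2 other HIF pathway genes and 1 to 2 other glucose genes that rose and 0 other glucose genes that fell. Fewer arrays leave fewer residual degrees of freedom in these fits.

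The sign of the log2 fold change turned for Arnt with the mean of its probes (0.45) and for Vegfa (0.053) and Gapdh (0.15) without between-array normalization, a setting that moved the median of all genes to 0.14 and so carries no sign of its own for them. Leaving out each array in turn, it also turned for Vegfa (range -0.50 to 0.024), Pdk1 (-0.081 to 0.67), Hk1 (-0.22 to 0.54) and Gapdh (-0.13 to 0.056), none of which passed the test. The cause of the other turns was not tested. Dim probes such as Hk1, Aldoc and Epas1 lay near background, which limits what their values can show.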
